A study of Mus musculus with 18 samples.

Results

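The transcriptional response of normal macrophages to lipopolysaccharide (LPS) was measured in 6 of the 18 RNA-seq libraries of the study, 3 of untreated WT cells and 3 of WT cells after LPS. The libraries were taken by their genotype and treatment labels, and all genes were considered. The cells were bone marrow-derived macrophages (BMMs) of adult female C57BL/6J mice, differentiated with M-CSF and exposed to 100 ng/ml LPS for 4 h or left untreated. The study's methods name Lyz2-Cre mice, which express the Cre recombinase from the promoter of the myeloid lysozyme gene, as the origin of the WT animals, and the Lyz2 values given at the end bear on this. The other 12 libraries came from GILZ KO cells, which lack a floxed exon of Tsc22d3 (the gene of glucocorticoid-induced leucine zipper, GILZ) in Lyz2-expressing cells, and from GILZ TG cells, which overexpress a Gilz cDNA from the ROSA26 locus after Cre removes a stop cassette. The labels number the preparations of each group from 1 to 3 but do not tie an untreated to an LPS library. The study describes the libraries of a group as independent preparations, with 3 mice per group. It does not state whether the untreated and the LPS libraries came from the same 3 mice. The p-values measure the spread between the libraries of a group and take all libraries as independent. Results with the preparation number as a block are given below.

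LPS is a component of the outer membrane of Gram-negative bacteria. It is bound by CD14 and by the receptor complex of TLR4 and MD-2, which signals through the adaptor MyD88 to NF-κB and MAP kinases, and through the adaptor TRIF to IRF3. The former pathway is known for inflammatory cytokines and chemokines, whereas the latter induces interferon-β, which acts back on the macrophage through its receptor and switches on antiviral genes. In parallel, inhibitors of both pathways are induced, and proliferation of macrophages is known to pause.

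The WT libraries held between 22888219 and 29832430 reads on genes (14583055 to 38557029 over all 18 libraries), and the 10 most abundant genes of a library took 8.23% to 8.93% of its reads. All 10 macrophage markers examined were detected at 1 TPM or more, where TPM is expression per transcript length and library total. The F4/80 gene Adgre1 was between 434.1 and 867.7 TPM and the M-CSF receptor gene Csf1r between 441.8 and 787.9 TPM. Defining markers of T cells (Cd3d, Cd3e, Cd3g, Trac), B cells (Cd79a, Ms4a1), NK cells (Ncr1, Prf1, Gzma) and mature neutrophils (Ly6g, Cxcr2) stayed under 0.1 TPM in all 6 libraries. The 8 stromal fibroblast genes summed to 11.3–22.4 TPM without treatment and to 13.2–20.7 TPM after LPS. The 10 neutrophil genes summed to 23.8–61.4 TPM and 20.7–77.4 TPM and the 7 endothelial genes to 5.63–8.43 TPM and 10.7–13.4 TPM, against 12498.6–19947.9 TPM for the macrophage genes. Other markers were detected. The T cell genes summed to 12.9–14.8 TPM without treatment and to 3.61–5.02 TPM after LPS, nearly all of it Cd28, and the B cell genes to 30.9–35.4 TPM and 19.7–22.5 TPM, mostly Ighm and Cd79b. The NK cell genes went from 0–0.09 TPM to 2.43–3.99 TPM through Klrk1, which rose. The part of these other cell types in the results was not tested.

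Of 12506 genes with sufficient counts, 8510 (68.0%) differed between LPS and untreated cells at an adjusted p under 0.05 (edgeR's quasi-likelihood test, Benjamini-Hochberg), 4141 of them higher (33.1%) and 4369 lower (34.9%). Which of these small changes count as a rise depends on the scale. The TMM scale used here multiplied the library totals by factors of 1.26–1.27 for the untreated and 0.77–0.81 for the LPS libraries. With plain library totals in place of TMM, the median of all genes shifted from a log2 fold change of -0.02 to -0.70, and only 18.6% instead of 48.7% of the calls were higher after LPS. On the log2(TPM + 1) scale, the median was -0.54 and the share 19.3%. Therefore, the results below rest on a stricter test, whether the change exceeded 2-fold. It called 2706 genes (21.6%), 1600 higher (12.8%) and 1106 lower (8.84%). Counts of genes higher or lower beyond 2-fold in the lists below are to be read against these shares of all genes tested. None of the 2706 had the opposite sign on the TPM scale, but the 2-fold threshold nearly fixed this, as the scales differed by less. "Rose" and "fell" stand for calls of this test unless said otherwise, and all fold changes are on the TMM scale, on which a log2 fold change of 0 means the median behaviour of all genes. With library totals, 1059 genes were higher and 3189 lower beyond 2-fold, so that the share of higher calls was 24.9% instead of 59.1%. Library totals kept 66.2% of the raised and 100% of the lowered calls. Limma on log2(TPM + 1) kept 49.6% and 78.6%.

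The genes that rose had a median log2 fold change of 2.46 (interquartile range 1.72 to 3.92), and 259 of them exceeded 5 and 83 exceeded 8. The genes that fell had a median of -1.87 (-2.40 to -1.52), and 40 of them were under -4. With library totals, the medians of the same genes were 1.79 and -2.55, so that the scale decides which side had the larger changes. The groups of TPM values did not overlap for 1593 of the 1600 genes and for all 1106 genes, against 83.5% of all genes tested. Measured as a share of all transcripts, the genes that rose took 6.53% to 6.62% of TPM in the untreated and 30.79% to 31.57% in the LPS libraries. The share of the genes that fell went from between 2.21% and 2.48% to between 0.44% and 0.49%. In 29 of the genes called, all 3 libraries of a group were at 0 counts, 24 times the untreated and 5 times the LPS group.

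**Figure D1:**
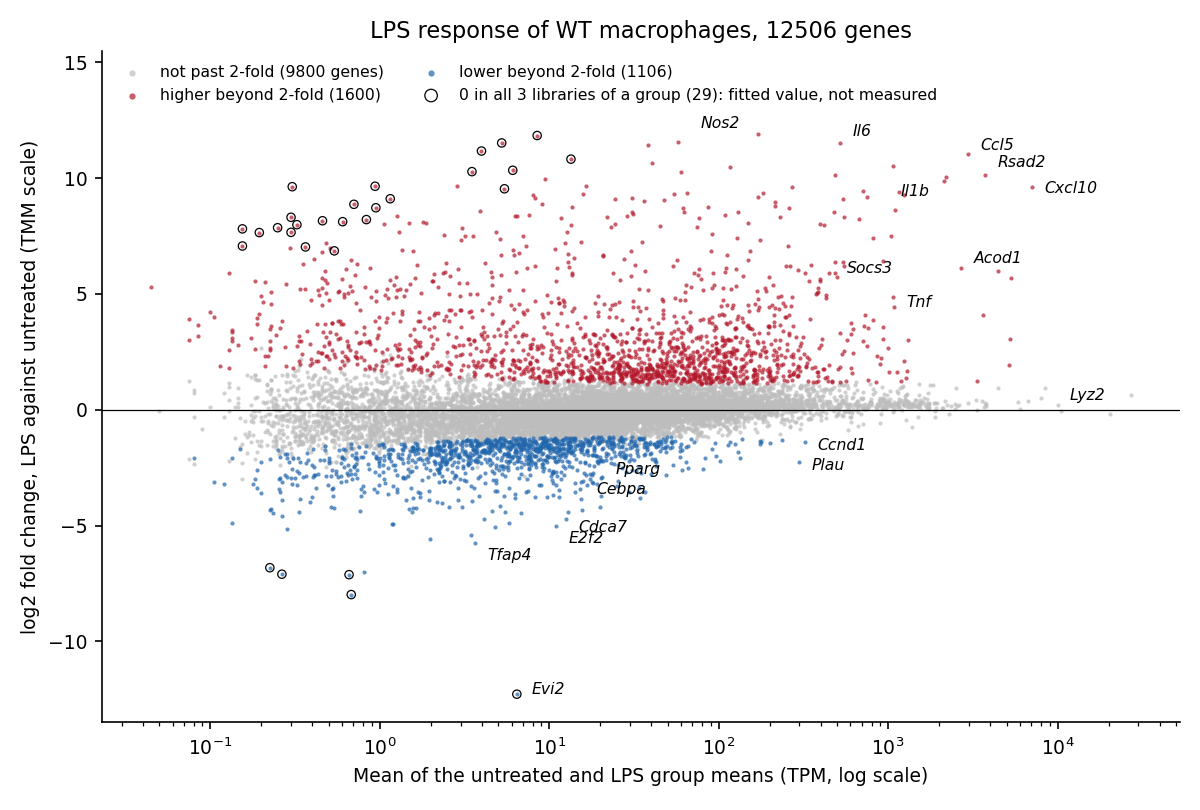
Log2 fold change of LPS against untreated WT macrophages (y axis, TMM scale) plotted against the mean of the TPM of both groups (x axis, log scale) for 12506 genes. Genes higher beyond 2-fold are in red (1600), genes lower beyond 2-fold in blue (1106) and all others in grey, and black rings mark the 29 genes at 0 in a whole group, whose fitted value is not a measured fold. The red points reach to almost 12, with 83 of them over 8, whereas most blue points lie between -1 and -4.

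Of the genes detected without treatment, Nos2, the inducible nitric oxide synthase, rose most strongly. It was at 0.16, 0.16 and 0.08 TPM in untreated cells and at 364.8, 294.6 and 371.7 TPM after LPS, a log2 fold change of 11.91 ± 0.18 (SE, n = 3 per group; adjusted p = 3.4e-09 against 2-fold, edgeR). The 15 strongest rises of protein-coding genes with at least 5 TPM in the higher group included the cytokine genes Il6, Il1a and Ifnb1. They also included Edn1 (endothelin-1), the chemokine genes Ccl5 and Ccl17, and the GTPase genes Gbp4, Iigp1 and Gbp2b. The lipase gene Lipg and the protease inhibitor gene Serpina3f were among them as well. In 5 of these 15, counts were 0 in all untreated libraries, so that only a lower bound of the fold can be given against a floor of 3 counts over the group. Apol9a was at least 589.4-fold, Heatr9 at least 470.3-fold, Ifi214 at least 367.9-fold, Ccl17 at least 294.7-fold and Ifnb1 at least 204.8-fold higher. Several of the strongest genes belong to families with near-identical copies (Apol9a and Apol9b, Serpina3f and Serpina3g, the Gbp, Ifi200 and Slfn genes), between which reads could be split, and the single values of such genes are uncertain.

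Promoter sequences of 6 of the raised genes and of 1 of the genes that fell are shown. The 6 were picked because they hold a match to the short motifs through which NF-κB, interferon-activated factors and AP-1 are known to bind, and most promoters of raised genes hold none of them. They are the RefSeq sequences of GRCm38.p6 from 250 bases before to 50 bases after the annotated start, 5′ to 3′ on the gene's strand, with motif matches in capitals. Searched on both strands were the kB motif and the core of the interferon-stimulated response element (ISRE), each 10 bases long and with 2 positions that allow any base, as well as TGANTCA for AP-1. The TATA box was searched as TATAAA. The matches of kB and ISRE can be read from the capitals. The 6 were taken motif by motif, highest log2 fold change first, among the genes named by rule and not among all raised genes. Il6 and Serpina3g were taken for kB, Apol9a, Ifi214 and Edn1 for ISRE and Heatr9 for AP-1.

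Il6 (kB at -44 from the start, and AP-1; chr5:30012864-30013163, plus strand): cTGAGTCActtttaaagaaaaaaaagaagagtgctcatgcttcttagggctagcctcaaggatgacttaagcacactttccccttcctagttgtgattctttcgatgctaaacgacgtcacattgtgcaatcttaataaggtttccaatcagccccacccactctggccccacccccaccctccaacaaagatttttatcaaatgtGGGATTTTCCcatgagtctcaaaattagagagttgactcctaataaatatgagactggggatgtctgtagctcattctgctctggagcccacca
Serpina3g (kB; chr12:104235897-104236196, plus strand): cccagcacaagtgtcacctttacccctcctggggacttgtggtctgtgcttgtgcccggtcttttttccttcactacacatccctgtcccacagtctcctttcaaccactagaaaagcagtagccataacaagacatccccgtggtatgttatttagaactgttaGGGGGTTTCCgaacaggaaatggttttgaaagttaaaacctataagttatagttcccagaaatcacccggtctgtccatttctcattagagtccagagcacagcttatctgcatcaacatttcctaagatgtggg
Apol9a (2 overlapping ISRE cores on the other strand, and AP-1; chr15:77411031-77411330, minus strand): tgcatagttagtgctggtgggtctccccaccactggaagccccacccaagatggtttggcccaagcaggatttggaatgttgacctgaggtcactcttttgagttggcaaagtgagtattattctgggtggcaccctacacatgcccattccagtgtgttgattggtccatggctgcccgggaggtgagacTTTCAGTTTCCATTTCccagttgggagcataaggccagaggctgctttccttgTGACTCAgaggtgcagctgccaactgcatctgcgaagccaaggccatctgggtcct
Ifi214 (ISRE and TATA; chr1:173535908-173536207, minus strand): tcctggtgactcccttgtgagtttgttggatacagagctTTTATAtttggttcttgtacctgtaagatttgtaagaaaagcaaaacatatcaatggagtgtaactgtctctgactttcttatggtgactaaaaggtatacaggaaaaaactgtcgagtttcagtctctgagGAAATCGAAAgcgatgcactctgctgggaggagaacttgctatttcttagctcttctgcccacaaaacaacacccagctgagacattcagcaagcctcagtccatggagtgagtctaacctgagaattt
Edn1 (ISRE on the other strand; chr13:42301226-42301525, plus strand): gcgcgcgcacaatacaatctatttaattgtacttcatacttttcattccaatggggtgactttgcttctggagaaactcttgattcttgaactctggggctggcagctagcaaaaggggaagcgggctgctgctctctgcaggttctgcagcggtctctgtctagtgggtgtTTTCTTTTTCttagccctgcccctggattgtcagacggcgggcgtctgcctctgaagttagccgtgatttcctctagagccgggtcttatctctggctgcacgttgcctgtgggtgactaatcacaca
Heatr9 (AP-1; chr11:83522050-83522349, minus strand): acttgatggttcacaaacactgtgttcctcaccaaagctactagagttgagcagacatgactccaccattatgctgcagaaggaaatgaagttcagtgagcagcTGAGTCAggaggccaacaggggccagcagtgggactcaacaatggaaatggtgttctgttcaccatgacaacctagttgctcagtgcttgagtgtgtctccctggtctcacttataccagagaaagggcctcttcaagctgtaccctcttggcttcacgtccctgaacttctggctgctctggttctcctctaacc
Fam78a (fell, no match; chr2:32084620-32084919, minus strand): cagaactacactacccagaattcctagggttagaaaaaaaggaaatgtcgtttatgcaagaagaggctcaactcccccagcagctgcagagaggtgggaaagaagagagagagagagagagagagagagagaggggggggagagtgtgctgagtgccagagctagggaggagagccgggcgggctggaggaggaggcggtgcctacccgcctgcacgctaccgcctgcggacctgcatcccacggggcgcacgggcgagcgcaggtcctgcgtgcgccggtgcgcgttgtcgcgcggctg

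Of the tested protein-coding genes outside chromosome 18, 9335 (82.7%) had such a promoter sequence. An ISRE core was found in 28.5% of the promoters of genes raised by a log2 fold change over 5, in 9.39% of all that rose, in 2.54% of those that did neither and in 1.81% of those that fell. For AP-1, the shares were 19.4%, 8.53%, 4.49% and 4.69% in the same order. The kB motif was found in 4.85%, 3.75%, 1.42% and 0.602% of the promoters. Of all 32851 promoter windows in the table, 3.44% held an ISRE core, 7.81% an AP-1 and 1.63% a kB motif. CG made up a median of 1.67% of the dinucleotides in promoters of genes raised by over 5, as against 5.35% for all that rose, 7.69% for those that fell and 7.02% for those that did neither. These letters describe the windows and do not show that a factor binds there.

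**Figure D2:**
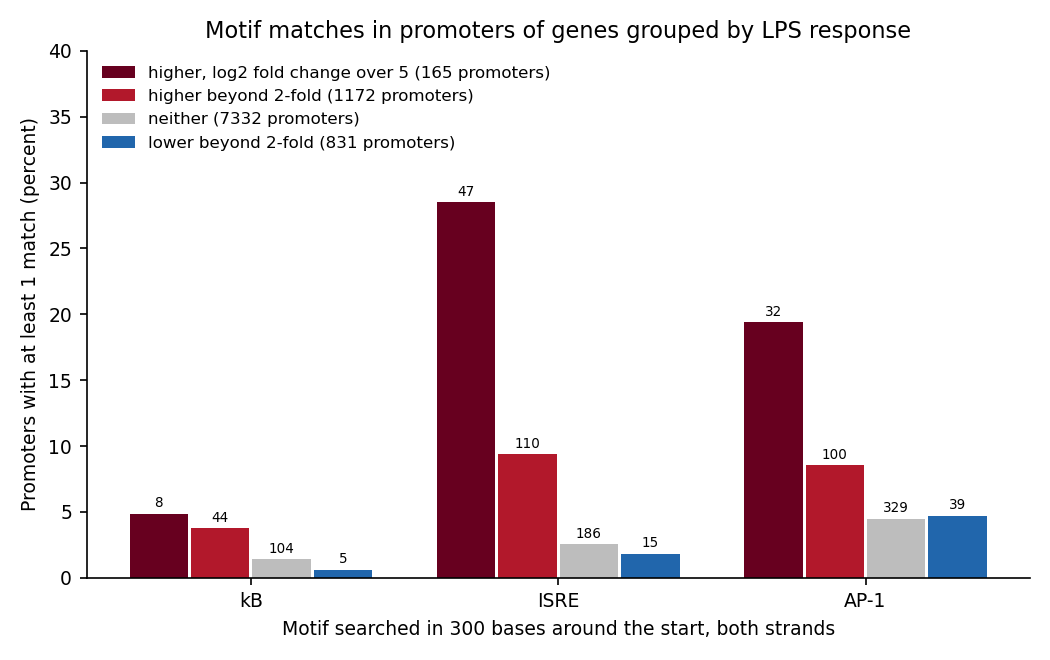
Share of promoters (y axis, percent, starting at 0) with at least 1 match of each motif (x axis) in the 300-base window, for genes raised by a log2 fold change over 5 (dark red), raised beyond 2-fold (red), neither (grey) and lower beyond 2-fold (blue), with the number of promoters above each bar. ISRE matches were found in 47 of the 165 promoters with the largest rises and in 186 of the 7332 promoters of genes that did neither.

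Of the 6 genes of the LPS receptor complex, Cd14 and Ly86 rose, and of the 4 adaptor genes, Myd88 and Ticam1 rose. Tlr4, the signalling receptor, was at 40, 37.6 and 32.5 TPM in untreated cells and at 44.2, 35.7 and 39.9 TPM after LPS, with overlapping groups and a log2 fold change of 0.66 ± 0.10 that did not exceed 2-fold. Cd14, the co-receptor that hands LPS to TLR4, went from 726.3, 711.5 and 829.8 TPM to 1396.8, 1433.8 and 1647.8 TPM, and Myd88 from 84.5–92.2 to 352.5–376.7 TPM. Ly96, which encodes MD-2, was higher by 1.21 ± 0.11, but not significantly beyond 2-fold (adjusted p = 0.0601). In total, 12 of the 31 genes for LPS sensing and signalling rose and 1 fell, against 12.8% and 8.84% of all genes tested. The adaptor gene of the TRIF pathway, Ticam1, rose by 1.39 ± 0.09, and its kinases Tbk1 and Ikbke by 1.69 ± 0.07 and 1.74 ± 0.07. The kinase gene Irak2 rose 7.98-fold and Irak3, whose product inhibits the pathway, 5.50-fold, while the kinase that starts the cascade, Irak4, was lower by -0.49 ± 0.07 without passing the 2-fold test. The gene that fell, Tab1, encodes a partner of the kinase TAK1 (11, 12.2 and 10.8 TPM against 2.43, 3.03 and 3.63 TPM).

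All 11 genes for NF-κB subunits and IκB proteins were higher after LPS, 8 of them beyond 2-fold. Rel (c-Rel) rose 11.4-fold, Nfkb1 7.98-fold and Nfkb2 5.01-fold, whereas Rela and Relb were higher by 0.92 ± 0.06 and 1.07 ± 0.08 on the log2 scale without passing the 2-fold test. Among the inhibitors that hold NF-κB in the cytoplasm, Nfkbia rose 5.53-fold. Nfkbiz, a nuclear IκB protein needed for a second wave of genes including Il6, rose most, from 7.56, 8.54 and 9.07 TPM to 199.0, 195.2 and 214.2 TPM (5.24 ± 0.10).

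Feedback inhibitors rose in 16 of 32 cases and fell in 3, against 12.8% and 8.84% of all genes tested. Tnfaip3 (A20), which removes ubiquitin chains from signalling complexes, rose 17.2-fold. The inhibitors of JAK-STAT signalling Socs1 and Socs3 rose more: Socs1 from 3.28, 3.01 and 3.73 TPM to 207.4, 220.9 and 237.7 TPM and Socs3 from 20.9, 26.8 and 24.2 TPM to 924.9, 908.9 and 1006.2 TPM. The MAP kinase phosphatase genes split, with Dusp2 raised 21.6-fold and Dusp1 3.02-fold, whereas 5 of the 8 did not pass. The RNA decay proteins that shorten the life of cytokine mRNAs split as well. Zfp36 (tristetraprolin) rose 11.2-fold and Zc3h12a (regnase-1) 7.56-fold, whereas Zfp36l1 and Zfp36l2, which are close relatives of Zfp36, fell. Zfp36l2 went from 180.3, 188.4 and 190.7 TPM to 38.5, 36.0 and 51.4 TPM (-1.53 ± 0.12).

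Of the immediate-early and induced transcription factors, 16 of 37 rose and 4 fell, against 12.8% and 8.84% of all genes tested. Of the classic immediate-early genes, Egr1 rose 2.87-fold and Ier3 5.39-fold. Fos was at 234.9, 210.0 and 175.4 TPM without treatment and at 115.7, 109.2 and 93.6 TPM after LPS, and Jun went from 105.3–112.3 to 35.3–47.2 TPM. Neither passed the 2-fold test on the TMM scale (-0.33 ± 0.12 and -0.83 ± 0.10). The TPM groups did not overlap, but this held for 83.5% of all genes tested, whose median on the log2(TPM + 1) scale was -0.54. The difference of Fos without a fold threshold (adjusted p = 0.0379, edgeR) was lost with DESeq2's size factors (adjusted p = 0.0588) and without untreated library 1 or 2 or LPS library 2 or 3 (adjusted p = 0.0665 to 0.114). Their relatives differed: Junb rose 5.29-fold and Atf3, a brake on inflammatory genes, 4.89-fold, while Fosl1 fell from 33.4, 36.0 and 34.5 TPM to 5.27, 5.46 and 5.82 TPM. The most strongly raised was Batf2 with 116.6-fold. Cebpd rose 15.3-fold and Cebpb 3.08-fold, and of the NR4A receptors, Nr4a3 rose whereas Nr4a1 fell by 1.58 ± 0.16 on the log2 scale.

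Cytokine genes were raised in 29 of 43 cases, with a median log2 fold change of 4.28 over the list. Their summed expression went from 1488.0–1662.4 TPM to 11981.0–13865.4 TPM. Il6 was at 0.54, 0.60 and 0.47 TPM in untreated cells and at 874.0, 1087.1 and 1171.3 TPM after LPS (11.53 ± 0.19). Il1b, the precursor of interleukin-1β, became the most abundant cytokine mRNA, from 8.46, 5.94 and 4.92 TPM to 3740.6, 4802.1 and 4656.2 TPM. Tnf started from a higher base and rose less, from 131.4, 138.0 and 159.6 TPM to 1870.1, 2101.2 and 2093.2 TPM, a 21.8-fold difference. Of the 15 tested interleukin genes and related factors, 14 rose and only Il16 fell (9.15, 8.78 and 10.9 TPM against 0.71, 0.82 and 1.05 TPM).

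Il10, the main anti-inflammatory interleukin of macrophages, went from 6.27, 5.14 and 3.73 TPM to 88.4, 53.4 and 48.7 TPM (4.28 ± 0.28). Il1rn, the interleukin-1 receptor antagonist, rose 52.7-fold and reached 890.5 to 1048.0 TPM. In the interleukin-12 family, Il27 reached 350.4 to 376.9 TPM and Il12b, the shared subunit of interleukins 12 and 23, 30.4 to 35.2 TPM. Their partner genes Il12a and Il23a had too few counts for a test, with at most 0.71 and 0.62 TPM after LPS. The growth factor genes Csf1, Csf2 and Csf3 rose 62.1-, 80.3- and 327.1-fold. Ifnb1 had 0 counts in the untreated libraries and was at 11.5, 16.4 and 8.52 TPM after LPS, a low level compared with the genes that respond to it.

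Chemokines had the highest summed expression after LPS of the 29 lists. The 27 tested chemokine genes together went from 7642.7, 8166.0 and 9383.3 TPM to 62398.7, 70384.4 and 71118.8 TPM, and 20 of them rose and none fell. Cxcl10, which attracts T cells and is interferon-induced, was at 26.4, 30 and 26.6 TPM and reached 13809.2, 14212.6 and 14028.2 TPM. Ccl5 rose from 4.43, 4.29 and 4.30 TPM to 5762.6, 6202.6 and 5844.2 TPM, the largest fold of a chemokine gene that was detected without treatment. The replicates of both were tight, with an SE of 0.11 each on the log2 scale. Ccl3, Ccl4, Ccl2, Ccl7 and Ccl9 were expressed without treatment and also rose, Ccl3 51.5-fold and Ccl9 3.79-fold. The neutrophil attractants Cxcl1, Cxcl2 and Cxcl3 rose 35.5-, 28.8- and 47.7-fold. Among the receptors, Ccr1 and the formyl peptide receptors Fpr1 and Fpr2 rose, whereas Cx3cr1 fell from 30.8, 32.6 and 43.5 TPM to 2, 1.72 and 3.85 TPM and Cxcr4 from 13.3, 6.70 and 4.14 TPM to 0.26, 0.18 and 0.20 TPM. Thus, 9 of 15 tested chemoattractant receptors rose and 3 fell, against 12.8% and 8.84% of all genes tested.

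**Figure D3:**
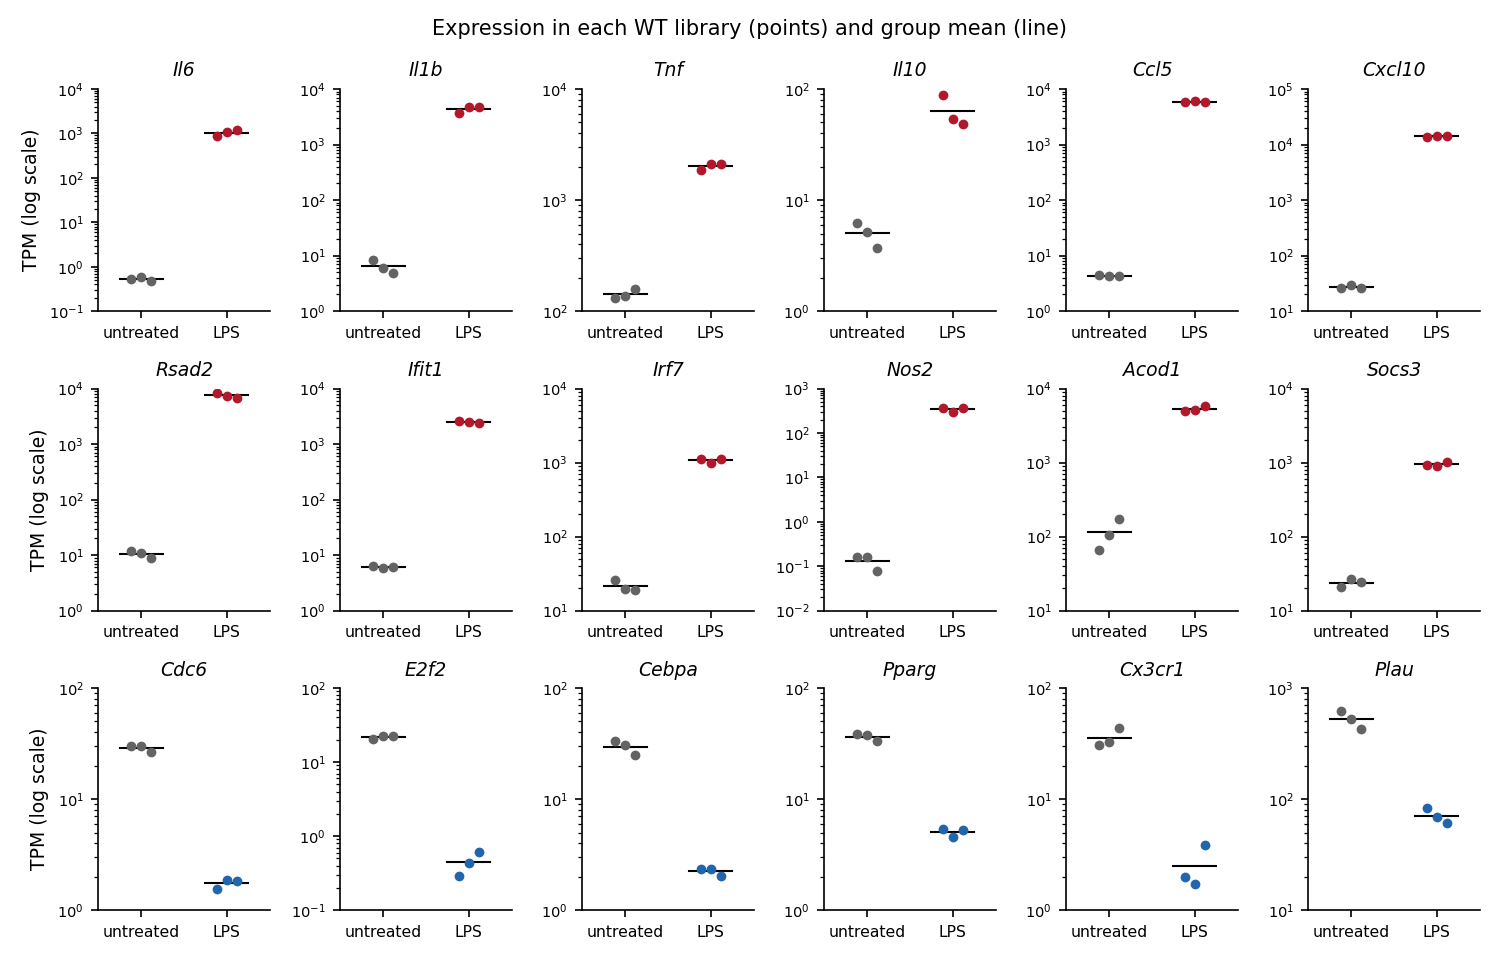
Expression in TPM (y axis, log scale) in each of the 3 untreated and 3 LPS libraries of WT macrophages (points) with the group mean (line) for 18 genes. The 12 genes of the upper 2 rows rose and the 6 of the lowest row fell, and in none of them do the groups overlap. For instance, Cxcl10 lies between 26.4 and 30 TPM without treatment and between 13809.2 and 14212.6 TPM after LPS.

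The interferon response had the largest share of raised genes among the 29 lists examined. Of 94 tested genes, 85 rose beyond 2-fold and none fell; the list had a median of 4.83 on the log2 scale, and its sum went from 5413.9–5552.6 TPM to 52389.0–62178.3 TPM. Of the factors that carry the interferon signal, Stat2 rose 23.7-fold and Irf9 4.57-fold, and Irf7, which amplifies interferon production, went from 26.2, 19.9 and 18.8 TPM to 1130.4, 1001.6 and 1108.5 TPM. Irf3, the factor that TRIF activates through phosphorylation, was lower by -0.45 ± 0.07, not beyond 2-fold. Of the effectors, Rsad2 (viperin) rose most, from 11.7, 10.8 and 9.01 TPM to 8455.1, 7352.7 and 6694.2 TPM, and Cmpk2 reached 3820.1 to 4893.3 TPM. Ifit1, Mx1 and Isg15 rose 626.5-, 702.2- and 180.6-fold. Of the interferon receptor genes, Ifnar1 rose 2.21-fold, and Ifngr1 was lower by -0.63 ± 0.06 without passing the 2-fold test. The cytosolic RNA sensor genes Ddx58 (RIG-I) and Ifih1 (MDA5) rose 34.6- and 65.4-fold, but their adaptor Mavs was lower by -0.53 ± 0.07, again within 2-fold. All 14 tested interferon-induced GTPase genes rose.

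Raised genes often lay side by side. Of the protein-coding genes that rose, 45.4% had a raised gene directly beside them among the tested protein-coding genes, compared with 22.9% of all tested protein-coding genes. With gaps under 500 kb, there were 30 runs of at least 4 adjacent raised genes, which held 158 genes. The longest comprised 14 genes of the Ifi200 family and its surroundings on chromosome 1 (173350879–174248450, GRCm38), with Aim2 at one end and log2 fold changes from 3.08 to 11.17. A run of 10 genes with Irgm1, Tgtp1, Tgtp2 and Ifi47 lay on chromosome 11 (48861968–49135387), where the Slfn genes formed another run of 7. The Ifit cluster on chromosome 19 (34550694–34650009) had 6 genes with a median of 9.14. Many of these neighbours are copies of each other, and reads could be shared between them.

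Genes of pattern recognition and of the inflammasome were raised in part. Of the 10 other Toll-like receptor genes tested, 7 rose, most of all Tlr3 (28.5-fold), the receptor for viral RNA, followed by Tlr1, Tlr6, Tlr8, Tlr2, Tlr7 and Tlr9. Tlr5, the receptor for flagellin, fell from 0.87, 1.17 and 1.1 TPM to 0.09, 0.10 and 0.22 TPM. Of 20 inflammasome genes, 10 rose and 2 fell, against 12.8% and 8.84% of all genes tested. Nlrp3 rose 10.1-fold, Casp1 7.42-fold, Casp4, which senses LPS inside the cell, 12.4-fold and Aim2 9.67-fold, and the pore-forming Gsdmd 2.94-fold. The genes that fell were Nlrp1b and Nlrc3, of which the latter inhibits inflammatory signalling (-1.92 ± 0.16).

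Of 18 tested genes for arginine, nitric oxide and itaconate, 8 rose and none fell, against 12.8% and 8.84% of all genes tested. The median of the list was 0.55 on the TMM scale and -0.08 on the TPM scale, and 10 members did not pass the 2-fold test. Beside Nos2, Acod1, which makes itaconate from a TCA cycle intermediate, went from 65.3, 104.9 and 173.8 TPM to 4933.5, 5164.4 and 5806.6 TPM. Gch1, which provides the cofactor of nitric oxide synthase, rose 10.2-fold, and the arginine transporter Slc7a2 48.4-fold. Of 20 tested genes for prostanoids and leukotrienes, 5 rose and none fell, against 12.8% and 8.84% of all genes tested. The median of this list was -0.03 on the TMM scale. Within it, Ptgs2 (cyclooxygenase-2) rose from 5.07, 4.76 and 5.28 TPM to 805.0, 762.9 and 914.0 TPM and Ptges (prostaglandin E synthase) 14-fold. Ptgs1 (cyclooxygenase-1) was lower by -0.84 ± 0.16, not beyond 2-fold. None of the 28 genes of the TCA cycle and none of the 29 genes of the respiratory chain passed the 2-fold test (edgeR). At an adjusted p under 0.05 (edgeR), 13 and 20 of them differed, against 68.0% of all genes tested. The 20 of the respiratory chain were all higher on the TMM scale. The median of that list was 0.27 on the TMM scale and -0.36 on the TPM scale. Of 29 glycolysis genes, 5 rose and 1 fell, against 12.8% and 8.84% of all genes tested. Those that rose were Pfkfb3 (9.74-fold), an activator of glycolytic flux, the glucose transporter Slc2a6 (15.3-fold) and the 3 hexokinase genes Hk1, Hk2 and Hk3. Pfkfb2 fell. The median of the list was 0.14 on the TMM scale and -0.49 on the TPM scale, so that a direction for glycolysis as a whole depends on the scale. Ch25h, which makes an antiviral oxysterol, rose 90.8-fold. In contrast, Scd2 fell from 34, 31.3 and 29.3 TPM to 1.87, 1.78 and 2.86 TPM. Of 26 genes of cholesterol synthesis and uptake 2 rose and 2 fell, against 12.8% and 8.84% of all genes tested.

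**Figure D4:**
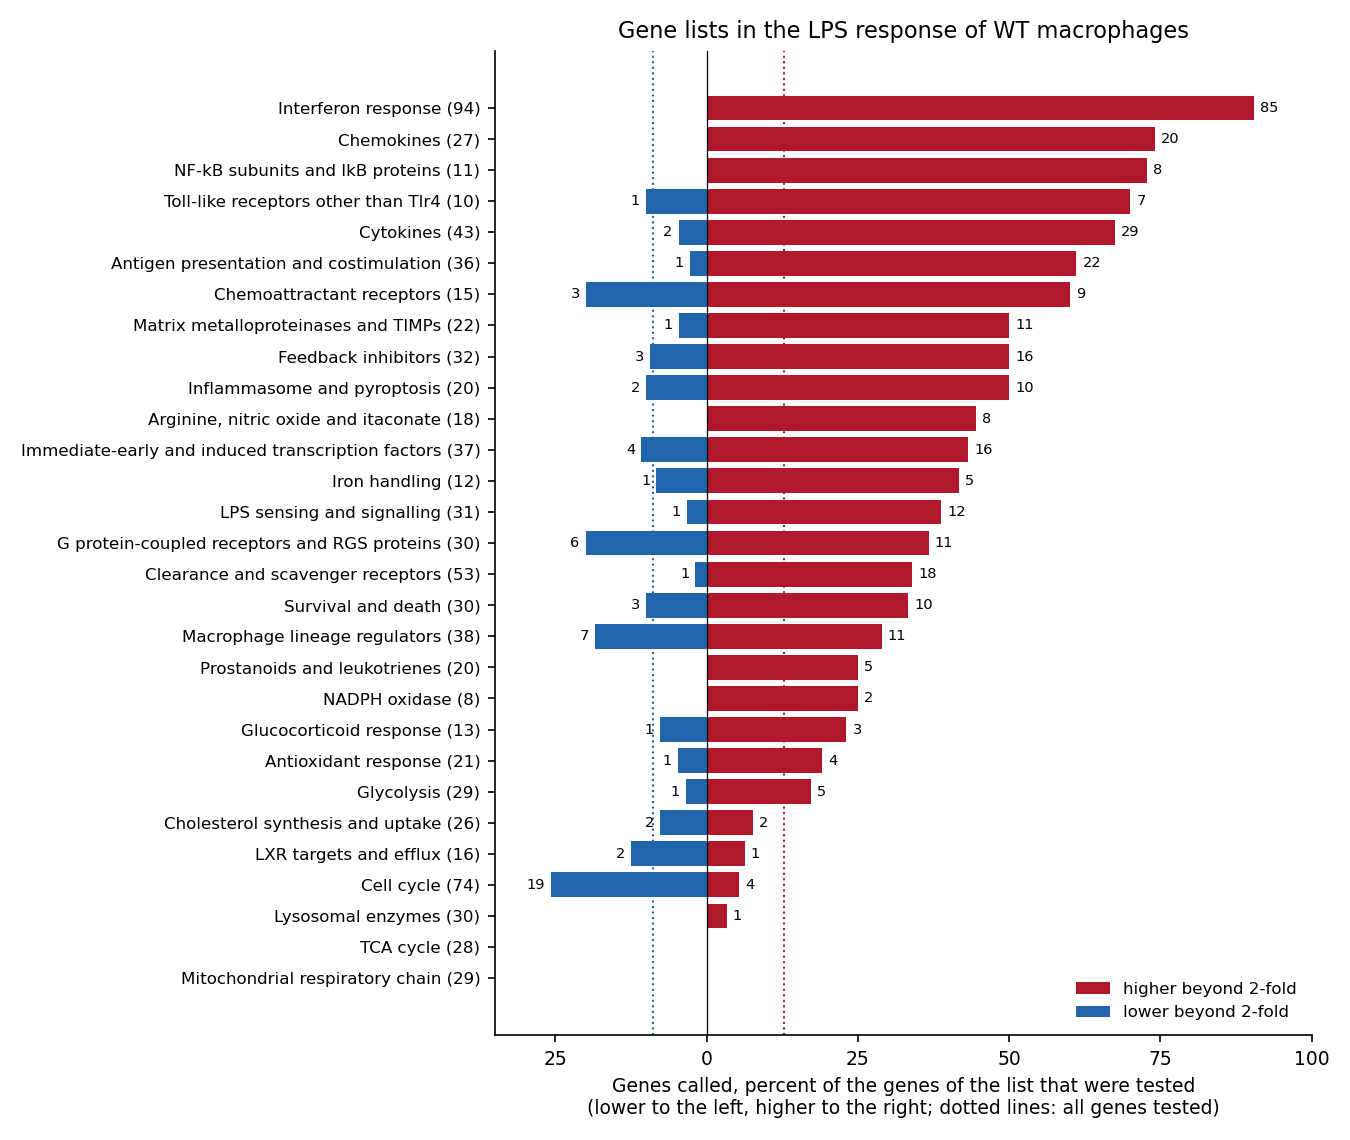
Share of the tested genes of each of 29 gene lists (number tested in brackets) that were higher (red, to the right) or lower (blue, to the left) beyond 2-fold after LPS in WT macrophages, in percent of the list, with the number of genes beside each bar. The dotted lines mark all genes tested (12.8% higher and 8.84% lower). Interferon response (85 of 94) and chemokines (20 of 27) lie at the top, the cell cycle list has the largest share of lower genes (19 of 74), and the TCA cycle and respiratory chain lists have none.

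Surface proteins changed selectively. For antigen presentation on MHC class I, 13 of 15 genes rose, such as Tap1 (16.1-fold), the immunoproteasome gene Psmb9 (6.89-fold) and B2m, from 2580.9–2715.1 to 3759.8–4460.3 TPM. For MHC class II, 1 of 9 tested genes rose, the regulator Ciita, which remained at 0.25 to 0.68 TPM after LPS, and H2-Ab1 had overlapping groups with 5.77, 4.47 and 9.53 TPM against 8.16, 9.48 and 22.3 TPM. Of the costimulatory molecules, Cd40 rose 82.2-fold and Cd86 16.4-fold, and the checkpoint ligand Cd274 (PD-L1) rose 73.7-fold, whereas Vsir (VISTA) fell (-1.26 ± 0.09). Against 12.8% of all genes tested, 18 of 53 receptors for clearance rose. These included Msr1, Marco, Olr1, Clec4e (Mincle) and the Fc receptor genes Fcgr1 and Fcgr4, but the dead-cell receptor Cd300lb fell from 144.3, 144.4 and 144.9 TPM to 15.6, 15.9 and 17.2 TPM. Trem2 was lower by -0.31 ± 0.08, not beyond 2-fold. The adhesion molecules Icam1 and Vcam1 rose 9.88- and 101.7-fold.

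Transcription factors of the macrophage lineage diverged. Spi1 (PU.1), the master regulator of myeloid cells, rose 2.27-fold from an already high level (371.4–404.8 to 507.7–577.7 TPM). Cebpa fell from 33.5, 30.4 and 25.1 TPM to 2.35, 2.33 and 2.04 TPM (-3.09 ± 0.12) and Pparg from 38.6, 37.8 and 33.3 TPM to 5.34, 4.56 and 5.31 TPM (-2.23 ± 0.09). Tfeb fell 5.00-fold as well. In contrast, Maf rose 4.81-fold. Hence, of 22 tested lineage factors 6 rose and 5 fell, against 12.8% and 8.84% of all genes tested. Csf1r, the receptor of the growth factor present in the medium, differed by -0.07 ± 0.07 on the TMM scale (adjusted p = 0.345, edgeR). With library totals, where the median of all genes was -0.70, it was lower by -0.75 (adjusted p = 1.23e-05, edgeR). On the log2(TPM + 1) scale, where that median was -0.54, it was lower by -0.70 (adjusted p = 2.89e-05, limma). Its TPM values did not overlap, as for 83.5% of all genes tested, with 736.6–787.9 against 441.8–504.6. In contrast, Csf3r rose 7.37-fold, and Il6ra and Tgfbr1 fell.

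Among the 29 lists examined, the cell cycle list had the largest share of genes that fell. Of 74 genes 19 fell and 4 rose, against 8.84% and 12.8% of all genes tested. The median over the list was -0.84 on the log2 scale (-1.49 on the TPM scale). At an adjusted p under 0.05 (edgeR), 54 were lower and 7 higher, against 34.9% and 33.1% of all genes tested. Cdc6, which licenses origins of replication, went from 30.1, 29.9 and 26.3 TPM to 1.54, 1.88 and 1.84 TPM. E2f2, an activator of S phase genes, went from 20.3, 22.2 and 22.5 TPM to 0.29, 0.44 and 0.61 TPM (-5.04 ± 0.19), and the G1 cyclin Ccnd1 from 542.8, 517.5 and 492.2 TPM to 152.6, 124.0 and 113.0 TPM. Of 24 S phase genes 8 fell, among them Rrm2, Uhrf1, Tk1 and Mcm2. Of 30 genes of G2 and mitosis 4 fell, against 8.84% of all genes tested. Mki67 was lower by -0.87 ± 0.12 and Top2a by -0.60 ± 0.15 without passing the 2-fold test. The cell cycle inhibitor Cdkn1a (p21) rose from 449.2, 454.2 and 454.0 TPM to 1356.4, 1364.8 and 1336.4 TPM, and Ccnd2 rose 8.91-fold in contrast to Ccnd1. In bulk samples, fewer cells in cycle and less RNA per cell in cycle cannot be told apart.

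Among the strongest falls were several transcription and signalling genes. Tfap4 went from 8.20, 7.71 and 5.84 TPM to 0.11, 0.04 and 0.10 TPM (-5.77 ± 0.28), Lyl1, a hematopoietic transcription factor, from 33.7, 34.8 and 46.2 TPM to 1.21, 1.17 and 1.69 TPM and Cdca7 from 28.3, 23.7 and 21.3 TPM to 0.58, 0.43 and 0.81 TPM. Gpr183, the receptor for an oxysterol made with the help of Ch25h, fell by 4.41 ± 0.17 on the log2 scale. Fam78a, whose promoter is given above, and Zfp395 fell by 5.07 ± 0.15 and 5.39 ± 0.31. Evi2 was listed at 10.1, 14.8 and 13.7 TPM without treatment and at 0 in all LPS libraries, but it overlaps Evi2a and Evi2b on the same strand, and its value depends on how shared reads were divided. For this reason, its promoter, which holds a TATA match, is not shown beside that of Fam78a. Of the abundant transcripts that fell, Plau (urokinase) was highest, from 625.1, 525.1 and 431.3 TPM to 82.6, 69.1 and 61.4 TPM, whereas the gene for its receptor, Plaur, rose 3.23-fold. Glul (glutamine synthetase), the nucleolar gene Nop56 and the noncoding RNA Gas5 fell 2.83-, 2.58- and 2.50-fold.

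Protein-coding genes that fell had a median of 10.9 TPM without treatment and 1.92 TPM after LPS. They had a median effective transcript length of 2888.7 bases against 2313.9 for those that did neither. Genes with 1 or 2 exons made up 10.2% of those that fell, 7.31% of those that rose and 4.09% of the remainder.

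Of 30 genes in the survival and death list, 10 rose and 3 fell, against 12.8% and 8.84% of all genes tested. Bcl2a1b (13.3-fold; its copies share reads) and the ubiquitin ligase gene Birc3 (5.99-fold) rose. The list also counts Cd69 (578.5-fold), which is known as a marker of activation rather than of survival. Those that fell included Bcl2 (-1.92 ± 0.13) and Bmf (-4.30 ± 0.30), which oppose each other in apoptosis. Of 21 genes of the antioxidant response 4 rose and 1 fell, against the same shares of all genes tested. Sod2, the mitochondrial superoxide dismutase, rose 5.99-fold and the NADPH oxidase subunit gene Cybb 8.15-fold. Hmox1 was lower by -0.44 ± 0.13 without passing the 2-fold test. Slc40a1 (ferroportin), the iron exporter, fell (-1.29 ± 0.13), and Lcn2, which captures bacterial iron carriers, rose 25.6-fold. Of 30 lysosomal genes, 1 rose, Ctsc (4.88-fold), and none fell, against 12.8% and 8.84% of all genes tested. Tsc22d3, which encodes GILZ, was at 15.8, 14.9 and 18.8 TPM in untreated and at 4.56, 5.81 and 5.09 TPM in LPS-treated WT cells (-1.1 ± 0.15; adjusted p = 0.000305, but 0.389 against 2-fold, edgeR). The glucocorticoid receptor gene Nr3c1 rose 5.06-fold, whereas the glucocorticoid-induced gene Fkbp5 was lower by -0.56 ± 0.10, not beyond 2-fold.

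The response of WT cells was set against those of GILZ KO and GILZ TG cells, each against its own untreated libraries, in a fit of all 18 libraries (13169 genes). In this fit, 1664 genes were higher (12.6%) and 1164 lower (8.84%) beyond 2-fold in WT cells. All 1664 were also higher in both other genotypes, and 1162 and 1163 of the 1164 were lower in GILZ KO and GILZ TG cells. Of the raised genes, 91.6% were called in GILZ KO cells as well, which is 96.2% of the 1585 genes (12.0%) called there, and 94.1% in GILZ TG cells, which is 95.3% of 1643 (12.5%). For the genes that fell, these shares were 85.8% and 81.8% of 1221 (9.27%) for GILZ KO and 84.3% and 86.8% of 1130 (8.58%) for GILZ TG cells. The test of the difference between the responses called 2 genes for GILZ KO (0.0152%) and 1 for GILZ TG (0.00759%) at an adjusted p under 0.05. These were Tsc22d3 in both and Kitl, the gene of stem cell factor, in GILZ KO cells. The call of Tsc22d3 held with DESeq2's size factors, limma and each WT library left out. That of Kitl was lost with DESeq2's size factors (adjusted p = 0.0551), limma (adjusted p = 0.382) and when any 1 WT library was left out (adjusted p = 0.0561 to 0.231). It held with DESeq2 (adjusted p = 8.33e-06), and in edgeR without the filter on counts (adjusted p = 0.00245) and with only the 12 libraries compared (adjusted p = 0.0194). The difference of Kitl lay between -0.97 and -1.12 throughout. With the preparation number as a block, 8 genes (0.0607%) passed for GILZ KO and 2 (0.0152%) for GILZ TG cells. A difference that did not pass this test is not shown to be absent, and the untreated and LPS values of WT cells enter both comparisons.

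**Figure D5:**
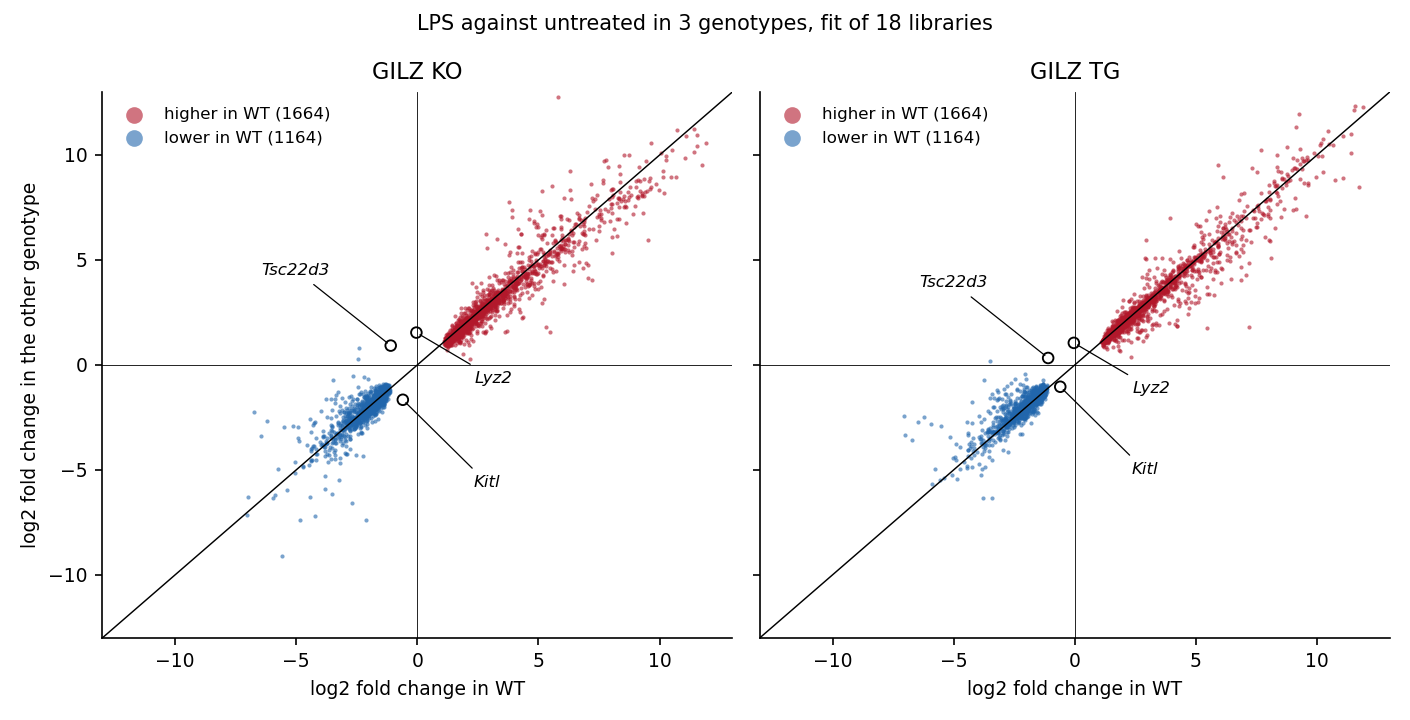
Log2 fold change of LPS against untreated in GILZ KO (left) and GILZ TG macrophages (right) on the y axis, plotted against that in WT macrophages on the x axis, for the genes higher (red, 1664) or lower (blue, 1164) beyond 2-fold in WT cells in the fit of 18 libraries. The black line marks equal responses and circles mark Tsc22d3, Kitl and Lyz2. Nearly all points follow the line, and Tsc22d3, with -1.1 in WT cells, lies above it in both panels. The values of genes at or near 0 in a group are fitted and scatter most.

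The model genes themselves limit this comparison. Lyz2 had a mean of 12839.8 TPM in untreated WT cells but 33.6 TPM in the untreated GILZ KO libraries and 33.0 TPM in those of GILZ TG cells, although the study names Lyz2-Cre mice as the origin of all 3 genotypes. The WT libraries therefore differed from the others at the locus that drives Cre, and a difference between genotypes cannot be told apart from a difference that goes with this locus. Within the WT libraries, Lyz2 was at 11048.2, 12070.2 and 15401.1 TPM without treatment and at 6766.0, 8033.6 and 9465.9 TPM after LPS (-0.04 ± 0.17 on the TMM scale).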

How the data were processed

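RNA of 18 macrophage cultures was sequenced after poly(A) selection. Per the study's methods, reads were checked with FastQC 0.11.2, processed with grape-nf and mapped to GRCm38 (mm10); the quantifier and its strand setting are not given in the sources used here. The deposited files hold an expected count (estimated reads per gene, not normalized) and a TPM value (per effective transcript length and library total) made by the authors for each of 38887 gene identifiers. The authors' own DESeq2 1.40.2 tables, which hold fold changes and p-values, were not used. Symbols and biotypes came from GENCODE M21 (37570 identifiers matched).

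Expected counts were rounded, filtered with filterByExpr, scaled with TMM and tested in edgeR 4.0.16 (R 4.3.3; quasi-likelihood test, and glmTreat against 2-fold), without a block, with Benjamini-Hochberg adjustment and a threshold of 0.05. Responses of genotypes were compared by interaction terms in a fit of 18 libraries. Alternatives used DESeq2 1.42.0 and limma 3.58.1 on log2(TPM + 1). Tested on simulated data for WT LPS against untreated (12460 genes, 200 changed), edgeR recovered 100% with 4.31% false calls. Its performance where 8510 of 12506 genes are called, as in the WT libraries, was not tested. WT depth was 22888219 to 29832430 reads.

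The libraries and the 29 gene lists were chosen with earlier results of these data known. Genes were named by rule: the 15 largest rises and falls with at least 5 TPM, per list role up to 4 members that rose, fell or did not pass plus preset anchors, the 10 most abundant that rose or fell, cell type markers, and genes whose response differed between genotypes. The genes Aim2, Apol9b, B2m, Ccr1, Csf1, Egr1, Evi2a, Evi2b, Fkbp5, Fos, Gch1, Gsdmd, Hk1, Ier3, Ifi47, Ifnar1, Ikbke, Il1rn, Il27, Irf9, Irgm1, Mcm2, Mmp12, Plaur, Psmb9, S1pr1, Tbk1, Tgtp2, Tk1, Tlr7 and Tlr9 fall outside this rule and were chosen after their values were seen. Promoters on chromosome 18 were not used here, and some genes are not reported here.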

Additional observations from a re-analysis of the deposited data

Results flagged for a closer look

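Responses to LPS that differed between genotypes by the test of the difference itself (edgeR, interaction term, log2 scale, negative where the response was lower than in WT) concerned few genes. For GILZ KO against WT, Tsc22d3 differed by 2.02 ± 0.22 (adjusted p = 0.000782) and Kitl by -1.06 ± 0.16 (adjusted p = 0.0372). Kitl did not pass with any 1 WT library left out (adjusted p = 0.0561 to 0.231), with DESeq2's size factors (adjusted p = 0.0551) or with limma (adjusted p = 0.382). It passed with DESeq2 (adjusted p = 8.33e-06), and in edgeR without the filter on counts (adjusted p = 0.00245) and with only the 12 libraries compared (adjusted p = 0.0194). For GILZ TG against WT, Tsc22d3 differed by 1.43 ± 0.16 (adjusted p = 0.00139). The mean of Tsc22d3 went from 16.5 to 5.15 TPM in WT, from 2.34 to 2.91 TPM in GILZ KO and from 155.9 to 131.7 TPM in GILZ TG cells, and that of Kitl from 30.4 to 12.7, from 70.0 to 14 and from 64.1 to 21.3 TPM. With the preparation number as a block, 8 genes passed for GILZ KO (edgeR): Tsc22d3 with 2.04, Lyz2 with 1.61, Kitl with -1.07, the interferon-induced helicase gene Ddx60 with -0.75, Efr3b with -0.63, Gm8995 with -0.61, the histone demethylase gene Kdm7a with -0.56 and Heatr5a with -0.53. For GILZ TG, Tsc22d3 with 1.43 and Lyz2 with 1.11 passed. Lyz2 was at a mean of 33.6 TPM in untreated GILZ KO and 33.0 TPM in untreated GILZ TG cells, against 12839.8 TPM in WT cells.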

How the results depend on the processing

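The number of genes higher and lower depended on the scale. No call beyond 2-fold changed sign on the TPM scale, which the threshold made nearly certain. Instead of 4141 higher and 4369 lower genes, library totals gave 2002 and 8734, limma on log2(TPM + 1) 1993 and 8332, and limma on log2(TPM + 0.1) 1993 and 8306. Beyond 2-fold, library totals called 4248 genes (1059 higher, 3189 lower), limma on log2(TPM + 1) 793 higher, limma on log2(TPM + 0.1) 933 higher and 2007 lower, and limma with each library centred on its median 1706 genes, 416 of them lower. DESeq2 kept 93.0% of the raised and 67.4% of the lowered calls. The share of higher calls beyond 2-fold was 35.3% on log2(TPM + 1), 75.6% centred and 66.6% with DESeq2, against 59.1%, and over all calls 52.6% centred and 51.2% with DESeq2, against 48.7%. Library totals and centring were chosen after seeing the data. Leaving out each of the 6 WT libraries in turn gave 7586 to 8479 calls (3680 to 4097 higher, 3906 to 4382 lower) and 2529 to 2766 beyond 2-fold (1557 to 1630 higher, 972 to 1136 lower). Whether the preparation numbers pair the samples was not settled. Correlations of deviations of same-numbered libraries were 0.302, -0.013 and 0.027, and those of other pairs lay between -0.189 and 0.165. The highest thus joined the libraries numbered 1, whereas untreated library 2 was closest to LPS library 3. Some genes kept the order of the numbers in both groups. All 5 tested neutrophil markers were lowest in library 3 of both, such as Ngp (9.65, 11.5 and 3.98 TPM untreated, 10.7, 12.1 and 3.45 TPM after LPS). The LXR list summed to 2180.1, 1821.6 and 962.6 TPM untreated and to 1722.2, 1369.9 and 751.1 TPM after LPS. The macrophage markers Csf1r and Itgam did not keep their order. With the replicate block, 9001 genes were called, 4412 higher and 4589 lower, and 2820 beyond 2-fold, 1653 higher and 1167 lower. For the difference between GILZ KO and WT responses, the block gave 8 genes, DESeq2 20, DESeq2's size factors 1 and limma 1, against 2; leaving out any 1 WT library gave 1 to 1. For GILZ TG, the block, DESeq2 and limma gave 2 each, against 1. Of the named genes, Tlr4 was at -0.02 with library totals, and Lyz2 between -0.17 and 0.12 when 1 library was left out, above 0 without untreated library 3 (0.12) and without LPS library 1 (0.07); the B cell marker gene Ighm (0.16) was at -0.52 with library totals, -0.44 with limma on log2(TPM + 1) and -0.46 on log2(TPM + 0.1). None of these 3 was called beyond 2-fold, and the cause was not tested. No other named gene changed sign under these alternatives.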

Other observations

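Receptors that couple to G proteins changed in both directions. Of 30 tested receptors and RGS proteins, 11 were higher and 6 lower beyond 2-fold (edgeR), against 12.8% and 8.84% of all genes tested. Adora2a, an adenosine receptor gene, went from 0.2, 0.27 and 0.3 TPM to 22.2, 26.6 and 24.9 TPM, and P2ry14, a receptor for UDP-glucose, rose 24.8-fold. In contrast, the sphingosine-1-phosphate receptor gene S1pr1 fell from 17.7, 18.2 and 18.3 TPM to 2.83, 2.33 and 3.28 TPM.

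Of 22 genes for matrix proteases and their inhibitors, 11 rose and 1 fell, against 12.8% and 8.84% of all genes tested. The collagenase gene Mmp13 went from 30.1, 34.3 and 34 TPM to 1788.9, 1881.5 and 1801.2 TPM, and the membrane-bound Mmp14 rose 34.2-fold. The elastase gene Mmp12 was abundant in both groups with overlapping values, 495.5 to 572.9 TPM without treatment and 534.2 to 663.2 TPM after LPS. Among noncoding genes, 28 of 140 antisense genes were higher and 9 lower beyond 2-fold, and 22 of 129 lincRNA genes were higher and 18 lower, against 12.8% higher and 8.84% lower of all genes tested. The library kit marks the strand, but the strand setting of the counting is not given in the sources used here, so that the values of antisense genes and their partners are uncertain.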
